A study of Homo sapiens with 32 samples.

Results

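Transcripts of NFE2L2, the gene for the transcription factor NRF2, and of 9 classic NRF2 target genes were followed in HepG2 cells exposed to silver nanoparticles. The members are NFE2L2, GCLC, GCLM, SLC7A11, TXNRD1, SRXN1, NQO1, HMOX1, FTH1 and FTL. They were chosen by name, and all 10 were present among the 13133 genes of the table. All 10 also passed the minimum mean of 5 normalized reads over all libraries and were among the 9324 genes tested. HepG2 cells are a long-used human liver cancer line and were grown alone, as a monoculture. Cells were left in medium with no nanoparticles (NoNP) or received silver particles at 1.2 ug/mL, whose coating was citrate, polyethylene glycol (PEG) or branched polyethylenimine (bPEI). Lysates were taken at 6, 12 and 24 h and measured with TempO-Seq. This assay joins 2 short detector oligonucleotides that sit side by side on a target transcript, then amplifies and sequences the product. The 6 h groups held 3 NoNP, 3 bPEI, 2 PEG and 2 citrate libraries. Each of the 4 groups at 12 h held 3, and the 24 h groups held 2 NoNP, 2 bPEI, 3 PEG and 3 citrate libraries, 32 libraries in all.

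NRF2 is held at a low level in unstressed cells by KEAP1, an adaptor that hands it to a CUL3 ubiquitin ligase. Electrophiles and oxidants modify cysteines of KEAP1, and NRF2 then collects in the nucleus, pairs with a small MAF protein and binds antioxidant response elements. Its targets make glutathione, reduce thiols and quinones, break down heme and store iron. NRF2 activity is set largely at the protein level, so the NFE2L2 transcript is not itself a measure of activity. In liver the pathway is known for detoxification and for defence against metals and reactive drugs.

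Libraries held 1313855 to 6735072 reads. A value below is a normalized read count, which is the reads divided by 1 size factor per library. Probes differ in how well they capture their targets, so levels are compared between libraries for 1 gene and not between genes. NoNP replicates A and B at 24 h had a rank correlation of 0.839 with each other, the lowest of any library with its own group. The range over libraries was 0.839 to 0.970, and bPEI replicate B at 6 h stood next lowest at 0.870. The value of 0.839 belongs to both NoNP libraries at 24 h, so it does not tell which of the 2 is typical. 1 fit left out NoNP replicate B at 24 h and bPEI replicate B at 6 h, called the set-aside libraries below, and another left out NoNP replicate A at 24 h. In either fit a single NoNP library stands for its group at 24 h and is assumed to vary like the others. Results that turn on these libraries are given under the fits that change them. The 8 hepatocyte markers summed to 156217 to 385530 normalized reads per library. Among markers of other cells, those of endothelium summed to 0 to 27.1 (1 of 4 measured, PECAM1), and those of fibroblasts to 131 to 611. The leukocyte list summed to 1871 to 8326 (3 of 4 measured, LYZ holding most of it, with CD14 at 0 in 9 libraries). The bile duct list summed to 1964 to 8347, with EPCAM (999.8 to 5702) and SOX9 (571 to 2419) holding most of it. KRT19 was at 6.39 to 502, and KRT7 was at 0 in 17 libraries. NoNP replicate B at 24 h had the highest fibroblast and bile duct sums, and bPEI replicate B at 6 h the lowest bile duct and leukocyte sums. Their part in the results was not tested. Nothing in the labels says whether replicates were separate cultures. The p-values therefore measure only the spread between these libraries, which may be technical.

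The promoters are shown for members whose start regions bear the letters of an antioxidant response element, and for 2 members of the same pathway that do not. RefSeq promoter windows (GRCh38.p14, 250 bases before to 50 after the start) were found for 7 of the 10 members, with 9 start sites in all. HMOX1, SLC7A11 and FTH1 were not in that table. The core motif TGACNNNGC was searched on both strands, where N is any base, and matches are in capitals. GCLM (glutamate-cysteine ligase, modifier subunit; chr1:93909381-93909680, minus strand) held 1 match, at -34 to -26 relative to the start and on the strand opposite to the gene.
GCLM: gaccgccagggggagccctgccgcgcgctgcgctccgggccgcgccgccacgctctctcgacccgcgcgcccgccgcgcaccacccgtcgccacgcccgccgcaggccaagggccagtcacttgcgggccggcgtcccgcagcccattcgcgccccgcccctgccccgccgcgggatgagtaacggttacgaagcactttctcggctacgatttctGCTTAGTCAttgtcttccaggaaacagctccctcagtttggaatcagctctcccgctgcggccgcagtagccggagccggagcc
TXNRD1 (thioredoxin reductase 1) had 2 start sites in the table. The first (chr12:104215529-104215828, plus strand) held 2 matches, at -99 to -91 on the gene's strand and at -8 to 1 on the opposite strand.
TXNRD1, first start: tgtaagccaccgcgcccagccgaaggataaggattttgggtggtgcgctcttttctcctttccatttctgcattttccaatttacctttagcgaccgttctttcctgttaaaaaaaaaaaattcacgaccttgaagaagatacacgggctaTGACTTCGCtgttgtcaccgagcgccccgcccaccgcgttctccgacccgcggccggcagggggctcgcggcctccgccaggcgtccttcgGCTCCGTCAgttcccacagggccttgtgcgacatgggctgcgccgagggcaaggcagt
The second (chr12:104286782-104287081, plus strand) held 1 match, at -102 to -94 on the strand opposite to the gene.
TXNRD1, second start: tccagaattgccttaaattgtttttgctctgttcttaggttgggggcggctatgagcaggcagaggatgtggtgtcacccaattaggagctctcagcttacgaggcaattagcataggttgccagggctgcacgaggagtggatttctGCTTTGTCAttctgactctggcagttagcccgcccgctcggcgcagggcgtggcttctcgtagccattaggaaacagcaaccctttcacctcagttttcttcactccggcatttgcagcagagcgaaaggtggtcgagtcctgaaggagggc
NQO1 (NAD(P)H quinone dehydrogenase 1; chr16:69726511-69726810, minus strand) had no match in this window.
NQO1: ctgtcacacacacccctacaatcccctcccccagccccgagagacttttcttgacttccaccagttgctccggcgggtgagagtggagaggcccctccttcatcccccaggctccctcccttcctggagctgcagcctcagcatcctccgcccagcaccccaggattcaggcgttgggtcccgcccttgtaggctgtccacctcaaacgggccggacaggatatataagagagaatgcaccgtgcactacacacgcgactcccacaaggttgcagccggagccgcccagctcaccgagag
SRXN1 (sulfiredoxin 1; chr20:653151-653450, minus strand) had none either.
SRXN1: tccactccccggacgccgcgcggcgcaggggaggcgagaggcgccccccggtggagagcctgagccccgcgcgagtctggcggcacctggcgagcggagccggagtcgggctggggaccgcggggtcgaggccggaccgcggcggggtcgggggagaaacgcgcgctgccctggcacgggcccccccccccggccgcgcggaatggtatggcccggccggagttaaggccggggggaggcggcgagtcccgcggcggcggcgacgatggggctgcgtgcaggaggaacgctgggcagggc
The windows of NFE2L2 (2 start sites), GCLC and FTL also held no match. Of 35116 RefSeq promoters of 300 bases, 13.3% held the motif and 1.13% held 2 or more matches. A match is a run of letters and not a measured binding site, and these windows do not reach the more distant elements known for several of these genes.

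Differences below are in log2(normalized reads + 1), which understates changes of low genes, and a call is a limma adjusted p under 0.05. The first question was whether any coating changed these transcripts against NoNP at the same time. In 90 tests of a member against NoNP, 8 passed the threshold and all 8 were lower with silver, while 2.31% of all gene tests passed in the same 9 comparisons. The 8 were NFE2L2 and NQO1 with bPEI at 6 h, NQO1 with citrate at 12 h, SRXN1 with bPEI at 24 h, SLC7A11 with citrate at 24 h, and FTH1 with all 3 coatings at 24 h. No member was called higher with any coating at any time in the fit of all libraries. Higher calls numbered 2 with only the groups compared, 3 without NoNP replicate A at 24 h and 2 without the set-aside libraries. HMOX1, the heme oxygenase often used as a marker of oxidative stress, was not called in any of the 9 with all libraries. Lysates hold the RNA of a whole culture, so fewer cells making a transcript and less of it per cell cannot be told apart.

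At 6 h bPEI changed 2 of 10 members (2.01% of all tested genes), both lower (1.32% of all tested genes were called lower). PEG at 6 h changed 0 of 10 members (0.0215% of all tested genes), with limma, 1 member at an unadjusted p under 0.05 and 0 by edgeR. Citrate at 6 h changed 0 of 10 members (0.279% of all tested genes), with limma, 4 members at an unadjusted p under 0.05 and 0 by edgeR. Of 9324 tested genes, 787 with PEG and 1004 with citrate were at that unadjusted p at 6 h. At 12 h bPEI changed 0 of 10 members (0.0965% of all tested genes), with limma, and 0 members both at an unadjusted p under 0.05 and by edgeR. PEG at 12 h changed 0 of 10 members (0.654% of all tested genes), with limma, 3 members at an unadjusted p under 0.05 and 0 by edgeR. Citrate at 12 h changed 1 of 10 members (6.12% of all tested genes), the 1 lower (2.24% of all tested genes were called lower), and 6 members were at an unadjusted p under 0.05. Over all tested genes at 12 h, 446 with bPEI, 965 with PEG and 1946 with citrate were at that unadjusted p. At 24 h bPEI changed 2 of 10 members (4.55% of all tested genes), PEG 1 of 10 members (2.83% of all tested genes) and citrate 2 of 10 members (4.2% of all tested genes). All of these were lower, as were 1.5% of all tested genes with bPEI, 0.708% with PEG and 1.4% with citrate. The comparisons at 1 time share their NoNP libraries, so likeness between coatings is no independent support. The median member difference was lowest with citrate at 24 h (-0.43 on the log2 scale, all genes 0.04) and at 12 h (-0.43, all genes -0.02), and highest with citrate at 6 h (0.10, all genes -0.00103). Without the set-aside libraries the count of calls against NoNP rose from 8 to 24, 22 lower and 2 higher, and most of the added calls were of NFE2L2, GCLC, GCLM and NQO1. Without NoNP replicate A at 24 h it rose to 16, 13 lower and 3 higher, and the 3 were NFE2L2, GCLC and NQO1 with bPEI at 24 h. For these genes the 24 h direction against NoNP thus turned with the NoNP library kept. Calls against NoNP over all genes rose in both fits as well, so a rise in member calls there is not particular to the members.

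**Figure D1:**
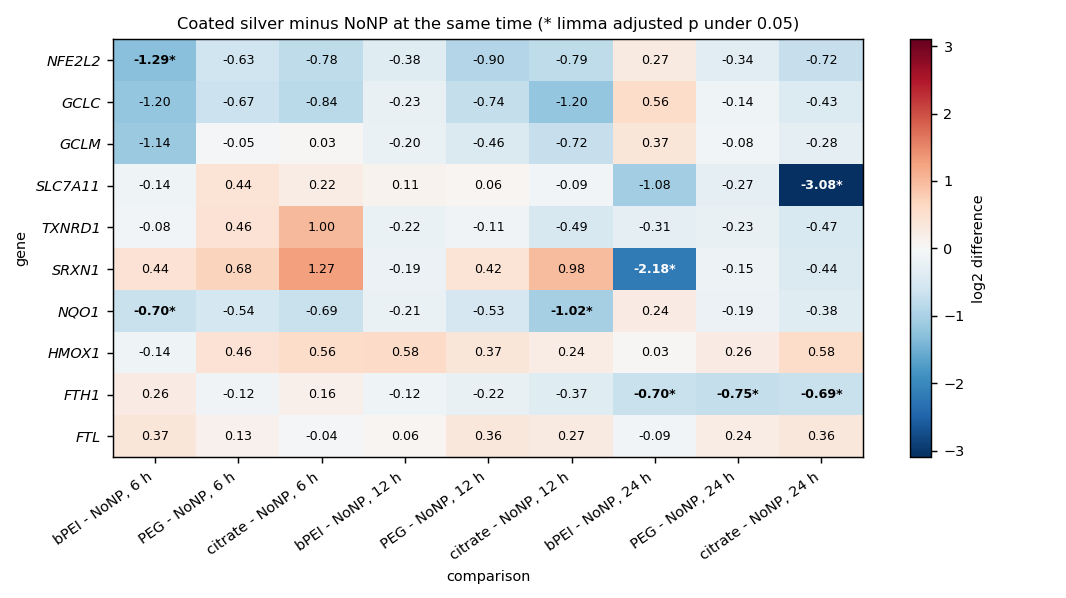
The heatmap gives the log2 difference of each member (rows) between each coating and NoNP at the same time (columns), in log2(normalized reads + 1). Asterisks mark limma adjusted p under 0.05: 8 cells, all blue, from -3.08 for SLC7A11 with citrate at 24 h to -0.69 for FTH1 with citrate at 24 h.

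NFE2L2 was 2.45-fold lower in mean with bPEI than with NoNP at 6 h. NFE2L2 at 6 h gave 1237, 1116 and 1119 normalized reads in the NoNP libraries, 492, 475 and 449 with bPEI, 703 and 797 with PEG, and 884 and 512 with citrate. All coated libraries lay below every NoNP library, and the 3 bPEI libraries were the lowest. The bPEI mean was 472 ± 21.3 (SD, n = 3) against 1158 ± 69.1 (SD, n = 3) in NoNP, a log2 difference of -1.29 ± 0.33 SE, limma adjusted p = 0.039. For NFE2L2 at 6 h differences for PEG (-0.63, limma adjusted p = 0.663) and citrate (-0.78, limma adjusted p = 0.445) did not pass. The bPEI call was lost with equal library totals, with only the 2 groups fitted, and without any 1 of the 3 NoNP libraries or bPEI replicate B alone, but without both set-aside libraries it was -1.30 (limma adjusted p = 0.00316).

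At 12 h NFE2L2 reached 2330.1, 2695 and 1945 normalized reads in the NoNP libraries, 1964, 1767 and 1612 with bPEI, 1292, 1342 and 1077 with PEG, and 1038, 1382 and 1640.3 with citrate. This was its highest time in every exposure, and every PEG and citrate library lay below every NoNP library, whereas 1 bPEI library reached into the NoNP range. The differences were -0.38 with bPEI, -0.90 with PEG (limma adjusted p = 0.267) and -0.79 with citrate (limma adjusted p = 0.156), and none passed. The set-aside libraries are in no 12 h group but enter the shared estimate of spread, and with them left out PEG and citrate passed at limma adjusted p = 0.0103 and 0.00938. At 24 h the values were 1706 and 369.7 normalized reads in the NoNP libraries, 752 and 1216 with bPEI, 744, 421 and 794 with PEG, and 577, 455 and 424 with citrate. The 2 NoNP libraries enclosed every coated library, and no 24 h difference passed (citrate -0.72, limma adjusted p = 0.308). Against NoNP replicate A alone, with the set-aside libraries left out, the difference was -1.82 (limma adjusted p = 7.99e-05) with citrate, -1.44 (limma adjusted p = 0.00151) with PEG and -0.83 (limma adjusted p = 0.135) with bPEI. Against NoNP replicate B alone all 3 were above 0, at 0.38 (limma adjusted p = 0.504), 0.76 (limma adjusted p = 0.128) and 1.37 (limma adjusted p = 0.00437), so the NFE2L2 direction at 24 h was not settled.

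The glutathione members behaved unevenly. GCLC makes the catalytic subunit of glutamate-cysteine ligase, the rate-limiting enzyme of glutathione synthesis. GCLC at 6 h gave 139, 172 and 187 normalized reads in the NoNP libraries, 109, 41 and 79.8 with bPEI, 131 and 81.5 with PEG, and 158 and 52.9 with citrate. Every bPEI and PEG library was below every NoNP library, and bPEI replicate B was the lowest. For GCLC at 12 h the values were 467, 592 and 354 normalized reads in the NoNP libraries, 381, 406 and 389 with bPEI, 345, 281 and 214 with PEG, and 193, 183 and 225 with citrate. NoNP and bPEI overlapped, the 3 PEG libraries lay below NoNP, and citrate had the lowest mean, though PEG replicate C reached into its range. GCLC at 24 h gave 409 and 41.3 normalized reads in the NoNP libraries, 173 and 215 with bPEI, 137, 117 and 103 with PEG, and 70.8, 181 and 71.3 with citrate. NoNP replicate A was the highest and replicate B the lowest of all 10 libraries at this time. None of the 9 GCLC comparisons with NoNP passed with all libraries. The largest differences were with bPEI at 6 h (-1.20 ± 0.52 SE, limma adjusted p = 0.21) and citrate at 12 h (-1.20 ± 0.52 SE, limma adjusted p = 0.177). When only NoNP replicate A, or only replicate B, at 24 h was left out, bPEI at 6 h stayed at -1.20 and passed. In the fit that left out the set-aside libraries, citrate at 12 h passed at -1.20 (limma adjusted p = 0.0069), while bPEI at 6 h was -0.81 (limma adjusted p = 0.305). At 24 h that fit gave -1.08 (limma adjusted p = 0.204) for bPEI, -1.78 (limma adjusted p = 0.00725) for PEG and -2.06 (limma adjusted p = 0.00156) for citrate. Without NoNP replicate A at 24 h the GCLC differences were 2.20 (limma adjusted p = 0.00384) for bPEI, 1.49 (limma adjusted p = 0.0541) for PEG and 1.21 (limma adjusted p = 0.127) for citrate, all of the other sign.

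GCLM is the modifier subunit of the same ligase and 1 of the 2 members with the core motif in its window. It was not called in any of the 9 comparisons with all libraries. GCLM at 6 h gave 1355, 1282 and 1085 normalized reads in the NoNP libraries, 844, 246 and 845 with bPEI, 1275 and 1109 with PEG, and 1408 and 1131 with citrate. The bPEI group was below the others at this time, with replicate B far under its partners. The bPEI difference was -1.14 ± 0.33 SE, limma adjusted p = 0.06. When only NoNP replicate A, or only replicate B, at 24 h was left out, it stayed at -1.14 and was called. Without both set-aside libraries it shrank to -0.55 and was not called. For GCLM at 12 h the values were 1013, 969 and 726 normalized reads in the NoNP libraries, 903, 722 and 728 with bPEI, 786, 644 and 542 with PEG, and 551, 553 and 525 with citrate, with the 3 citrate libraries close together and below every library of the other 3 groups except PEG replicate C. The citrate difference was -0.72 ± 0.33 SE, limma adjusted p = 0.201. GCLM at 24 h gave 956 and 424 normalized reads in the NoNP libraries, 862 and 787 with bPEI, 900.0, 596 and 404 with PEG, and 495, 626 and 469 with citrate, and the groups overlapped. Without the set-aside libraries citrate passed at 12 h, -0.72 (limma adjusted p = 0.0109), and at 24 h, -0.86 (limma adjusted p = 0.0353). Without NoNP replicate A at 24 h the 24 h value was 0.31 (limma adjusted p = 0.719).

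SLC7A11 encodes the light chain of the cystine/glutamate antiporter that brings in cystine for glutathione, and ATF4 as well as NRF2 is known to drive it. It rested on the fewest reads of the 10 members, 0 to 135 per library. SLC7A11 at 6 h gave 19.2, 28 and 35.1 normalized reads in the NoNP libraries, 31, 15.4 and 29.4 with bPEI, 42.9 and 30.9 with PEG, and 35 and 27.8 with citrate. For SLC7A11 at 12 h the values were 63.2, 66.8 and 25.4 normalized reads in the NoNP libraries, 62.3, 57.1 and 38.2 with bPEI, 61.2, 53.3 and 37.7 with PEG, and 42.9, 42.8 and 48.6 with citrate. Every coating overlapped NoNP at both times. SLC7A11 at 24 h gave 67.4 and 32.6 normalized reads in the NoNP libraries, 35.5 and 13 with bPEI, 66.6, 45.4 and 18.9 with PEG, and 20.8, 0 and 7.38 with citrate. The 3 citrate libraries rested on 10, 0 and 6 reads and lay below both NoNP libraries, with 42 and 15 reads. The count of 0 in citrate replicate B allows up to 4.20 normalized reads (3 reads), counting error only. Citrate had a mean of 9.4 ± 10.6 (SD, n = 3) against 50 ± 24.6 (SD, n = 2) and a log2 difference of -3.08 ± 0.75 SE, limma adjusted p = 0.0143. The call was lost without citrate replicate B, where the fall was 1.83, without NoNP replicate A, with voom weights, with only these groups fitted, and with 1 variance weight per group. With the set-aside libraries left out, it was -3.59 (limma adjusted p = 0.0071). Citrate against PEG at 24 h was -2.81 ± 0.67 SE, limma adjusted p = 0.284, and did not pass.

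TXNRD1 makes thioredoxin reductase 1, which keeps thioredoxin reduced. TXNRD1 at 6 h gave 176, 237 and 224 normalized reads in the NoNP libraries, 252, 121 and 259.8 with bPEI, 286 and 293 with PEG, and 382 and 466 with citrate. The 2 citrate libraries were the highest and, like the 2 PEG libraries, lay above every NoNP library. Citrate differed by 0.997 ± 0.35 SE, limma adjusted p = 0.262, a 95% confidence interval of 0.28 to 1.71, and was not called. For TXNRD1 at 12 h the values were 154, 168 and 206 normalized reads in the NoNP libraries, 148, 142 and 160.5 with bPEI, 204, 119 and 174 with PEG, and 165, 76.9 and 150.1 with citrate. All coatings overlapped NoNP and the differences ran from -0.49 to -0.11. TXNRD1 at 24 h gave 337 and 400.2 normalized reads in the NoNP libraries, 328 and 267 with bPEI, 561, 246 and 222 with PEG, and 346, 233 and 232 with citrate, with both bPEI libraries just below both NoNP libraries and PEG replicate A above all others. None passed, with a smallest limma adjusted p of 0.541.

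SRXN1 encodes sulfiredoxin, which restores over-oxidized peroxiredoxins. SRXN1 at 6 h gave 97.1, 138 and 112 normalized reads in the NoNP libraries, 172, 161 and 137 with bPEI, 248 and 138 with PEG, and 207 and 372 with citrate. The citrate libraries lay above every NoNP library, and the difference was 1.27 ± 0.40 SE, limma adjusted p = 0.191. For SRXN1 at 12 h the values were 100.3, 43.2 and 52.5 normalized reads in the NoNP libraries, 47.5, 38.2 and 83.4 with bPEI, 119, 49.5 and 94.2 with PEG, and 168, 83.9 and 128 with citrate, with citrate high but overlapping NoNP through NoNP replicate A. The citrate difference at 12 h was 0.98 ± 0.36 SE, limma adjusted p = 0.0987, and 0.98 (limma adjusted p = 0.0477) without the set-aside libraries. SRXN1 at 24 h gave 276 and 431 normalized reads in the NoNP libraries, 77.9 and 72.8 with bPEI, 418, 299 and 242 with PEG, and 249.8, 197 and 332 with citrate. The bPEI libraries were far below all 8 other libraries at this time, by a log2 difference of -2.18 ± 0.44 SE, limma adjusted p = 0.00257 from NoNP, with means of 75.4 ± 3.64 (SD, n = 2) and 353 ± 109 (SD, n = 2). The call was -1.86 (limma adjusted p = 0.0244) without the set-aside libraries. It was lost without bPEI replicate B, with only the groups compared, and with 1 variance weight per group. SRXN1 with PEG and citrate at 24 h was not called (PEG -0.15, interval -0.97 to 0.67, and citrate -0.44, interval -1.26 to 0.38). Those differences were 0.17 and -0.12 without the set-aside libraries, and -0.47 and -0.76 without NoNP replicate A.

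NQO1 encodes a cytosolic quinone reductase and is a widely used readout of NRF2 activity. NQO1 at 6 h gave 7483, 8250.0 and 7156 normalized reads in the NoNP libraries, 5151, 4028 and 4989.6 with bPEI, 5988 and 4569.8 with PEG, and 5196 and 4297 with citrate. Every coated library was below every NoNP library. The difference was -0.70 ± 0.19 SE, limma adjusted p = 0.0473 with bPEI, which passed. It was -0.54 ± 0.21 SE, limma adjusted p = 0.504 with PEG and -0.69 ± 0.21 SE, limma adjusted p = 0.183 with citrate, which did not. The bPEI call was lost with no filter, with equal totals, with quantile normalization, with only the groups compared and by edgeR, whose adjusted p was 0.0644, and without any 1 NoNP library or bPEI replicate B at 6 h. In the fit that left out the set-aside libraries, all 3 passed, at limma adjusted p = 0.0274 for bPEI, 0.0318 for PEG and 0.00416 for citrate.

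At 12 h NQO1 gave 10712, 10794 and 9407 normalized reads in the NoNP libraries, 9393, 9048 and 8214 with bPEI, 8069, 7313 and 6163 with PEG, and 5267, 5146 and 4781 with citrate. The groups fell in the order NoNP, bPEI, PEG and citrate, with every library of each coating below every NoNP library. Citrate differed from NoNP by -1.02 ± 0.19 SE, limma adjusted p = 0.0013, with means of 5065 ± 253 (SD, n = 3) and 10304 ± 778 (SD, n = 3). This call held in all 12 alternative settings and without each of its 6 libraries. PEG was -0.53 ± 0.19 SE, limma adjusted p = 0.252, and bPEI -0.21 ± 0.19 SE, limma adjusted p = 1, and neither passed. PEG passed without the set-aside libraries, -0.53 (limma adjusted p = 0.0103). Citrate also differed from bPEI at 12 h, by -0.81 ± 0.19 SE, limma adjusted p = 0.0244, a call lost when any 1 of the 6 libraries of the 2 groups was left out. At 24 h NQO1 gave 9240.2 and 3976 normalized reads in the NoNP libraries, 7710.3 and 6681 with bPEI, 5947, 5531 and 4555 with PEG, and 4687, 4829.5 and 4468 with citrate. NoNP replicate B was below every other library and replicate A above all, and none passed. The bPEI difference was 0.24. Without the set-aside libraries PEG differed by -0.80 (limma adjusted p = 0.0024) and citrate by -0.99 (limma adjusted p = 0.000198), while bPEI did not pass, -0.36 (limma adjusted p = 0.303). Without NoNP replicate A all 3 were above 0, at 0.42 (limma adjusted p = 0.198) with PEG, 0.23 (limma adjusted p = 0.525) with citrate and 0.85 (limma adjusted p = 0.00489) with bPEI, so the NQO1 direction at 24 h was not settled either.

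HMOX1 encodes the inducible heme oxygenase, which splits heme into biliverdin, iron and carbon monoxide, and BACH1 as well as NRF2 controls it. HMOX1 at 6 h gave 792, 534 and 507 normalized reads in the NoNP libraries, 681, 499 and 473 with bPEI, 1036 and 655 with PEG, and 907 and 864 with citrate. The citrate libraries lay above every NoNP library and PEG replicate A was the highest of all, but PEG overlapped NoNP. The 6 h differences were -0.14 ± 0.33 SE with bPEI, 0.46 ± 0.37 SE with PEG and 0.56 ± 0.37 SE with citrate, with a smallest limma adjusted p of 0.61. For HMOX1 at 12 h the values were 76.5, 77.5 and 79.6 normalized reads in the NoNP libraries, 112, 111 and 130.4 with bPEI, 113, 78.3 and 115 with PEG, and 109.9, 106 and 67.3 with citrate. The 3 bPEI libraries were above every NoNP library, and the bPEI difference was 0.58 ± 0.33 SE, limma adjusted p = 1, with an unadjusted p of 0.0829. HMOX1 at 24 h gave 33.7 and 80.5 normalized reads in the NoNP libraries, 58 and 48.7 with bPEI, 74.6, 68.1 and 48.4 with PEG, and 106, 111 and 40.6 with citrate, where NoNP replicate A was the lowest library and replicate B lay within the range of the coatings. The citrate difference at 24 h was 0.58 ± 0.37 SE, limma adjusted p = 0.438. With the set-aside libraries left out, it was 1.19 (limma adjusted p = 0.0479), which was called higher in that fit, and without NoNP replicate A it was -0.04 (limma adjusted p = 0.974).

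FTH1 and FTL make the heavy and light subunits of ferritin, the iron store. Both have many near-identical processed copies elsewhere in the genome, and whether the probes separate them is not known here, so their reads are uncertain. FTH1 at 6 h gave 1596, 2559.7 and 2275 normalized reads in the NoNP libraries, 2700.0, 2477 and 2411 with bPEI, 2059 and 1823 with PEG, and 2247 and 2470.1 with citrate, and every coating overlapped NoNP. For FTH1 at 12 h the values were 3233, 3106 and 3239 normalized reads in the NoNP libraries, 2756, 2846 and 3197 with bPEI, 3043, 2574 and 2624 with PEG, and 2546, 2377 and 2490.3 with citrate, with every PEG and citrate library below every NoNP library and differences of -0.22 and -0.37 that did not pass (limma adjusted p = 0.715 and 0.161). FTH1 at 24 h gave 3819 and 3597 normalized reads in the NoNP libraries, 2516 and 2068 with bPEI, 2529, 2096 and 2039 with PEG, and 2217, 2142 and 2547 with citrate. All 8 coated libraries lay below both NoNP libraries, which lay close together for this gene. The differences were -0.70 ± 0.19 SE, limma adjusted p = 0.0293 with bPEI, -0.75 ± 0.18 SE, limma adjusted p = 0.0143 with PEG, and -0.69 ± 0.18 SE, limma adjusted p = 0.0198 with citrate. In the fit that left out the set-aside libraries, they were -0.74 (limma adjusted p = 0.0306), -0.79 (limma adjusted p = 0.00921) and -0.73 (limma adjusted p = 0.0128). Without NoNP replicate A they were -0.66 (limma adjusted p = 0.0428), -0.70 (limma adjusted p = 0.0339) and -0.65 (limma adjusted p = 0.0533). All 3 calls were lost with quantile normalization, the bPEI and citrate calls with equal library totals, and the bPEI call with TMM factors, all with the same sign. All 3 were also lost with only the groups compared and with 1 variance weight per group, and each without 2 or 3 of its own libraries left out in turn.

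FTL at 6 h gave 2356, 2493 and 2442 normalized reads in the NoNP libraries, 3318, 2895 and 3251 with bPEI, 2790.1 and 2542 with PEG, and 2129.5 and 2620.4 with citrate, with the 3 bPEI and 2 PEG libraries above all NoNP libraries. The bPEI difference was 0.37 ± 0.16 SE, limma adjusted p = 0.206, and it did not pass. For FTL at 12 h the values were 1797, 1711 and 1888 normalized reads in the NoNP libraries, 1863, 1836 and 1932 with bPEI, 2666, 2323 and 1984 with PEG, and 2300.0, 1969 and 2234 with citrate. Every PEG and citrate library was above every NoNP library, with differences of 0.36 and 0.27 that did not pass. FTL at 24 h gave 2912 and 3684 normalized reads in the NoNP libraries, 3465 and 2752 with bPEI, 5012, 3592 and 3209.8 with PEG, and 4514, 4407 and 3750.1 with citrate. The citrate libraries were all above both NoNP libraries, by 0.36 ± 0.18 SE, limma adjusted p = 0.297, which was not called. It was 0.53 (limma adjusted p = 0.0755) without the set-aside libraries and 0.19 (limma adjusted p = 0.645) without NoNP replicate A. The 2 ferritin subunits had opposite signs at 24 h with citrate, FTH1 called lower and FTL not called, and the difference between the 2 genes was not tested.

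**Figure D2:**
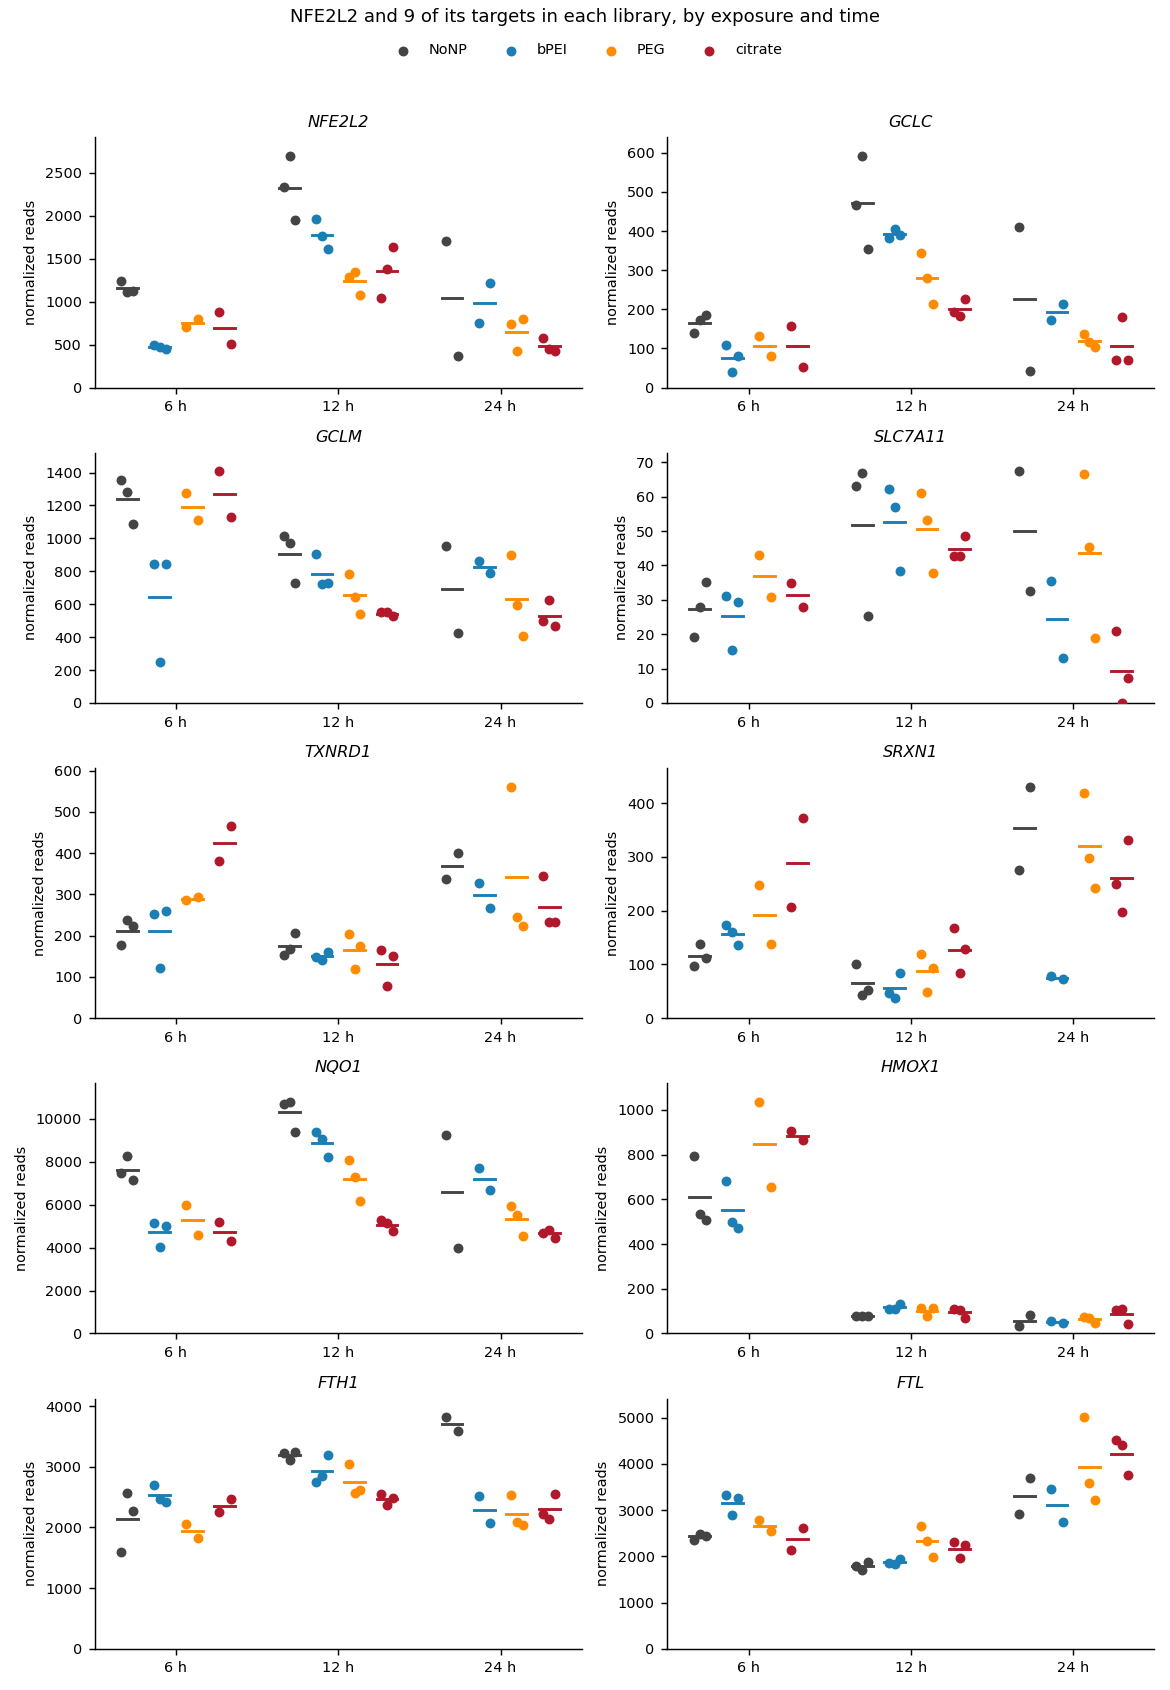
Each point is 1 library and each bar the mean of its group, in normalized reads on a linear axis from 0, with groups ordered NoNP, bPEI, PEG and citrate within 6, 12 and 24 h. HMOX1 is high at 6 h in all 4 exposures (473 to 1036) and at most 130.4 afterwards, and the 2 NoNP points at 24 h lie far apart for NFE2L2, GCLC, GCLM and NQO1 but close for FTH1.

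Comparing groups without regard to the threshold, the libraries of bPEI and NoNP at 6 h did not overlap for 5 of 10 members (24.8% of all tested genes), those of PEG and NoNP for 5 of 10 members (32.1% of all tested genes), and those of citrate and NoNP for 5 of 10 members (34.9% of all tested genes). At 12 h the counts were 2 of 10 members (19.1% of all tested genes) for bPEI, 5 of 10 members (20.8% of all tested genes) for PEG and 6 of 10 members (32.3% of all tested genes) for citrate. At 24 h they were 3 of 10 members (36.4% of all tested genes) for bPEI, 1 of 10 members (21.9% of all tested genes) for PEG and 3 of 10 members (23.2% of all tested genes) for citrate.

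**Figure D3:**
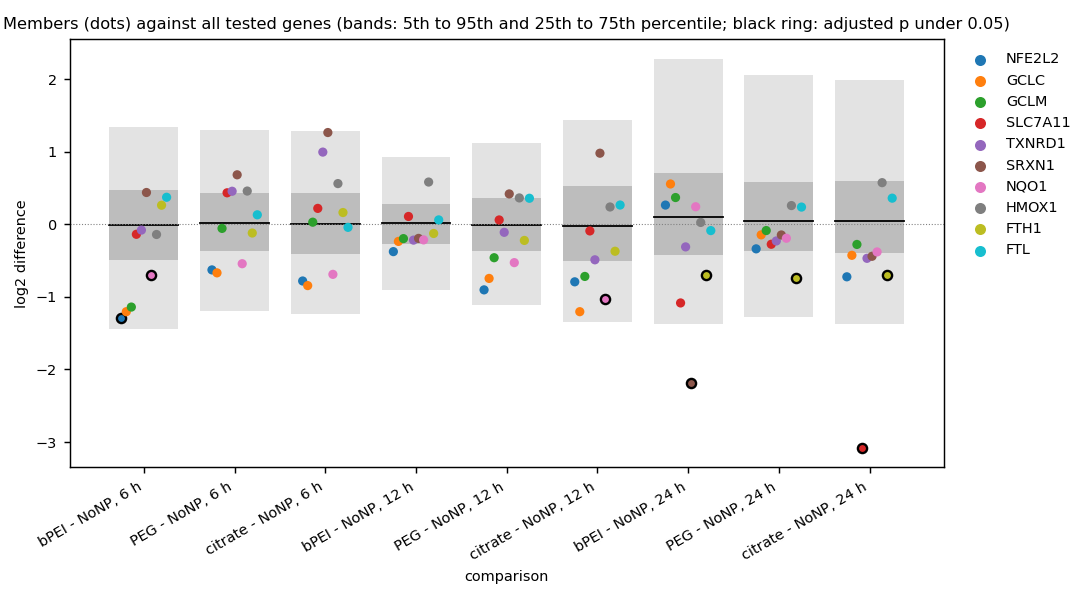
Log2 differences from NoNP of the 10 members (dots, black ring where called) in each comparison, over bands for the 5th to 95th and 25th to 75th percentiles of all 9324 tested genes and a line at their median. The called members at 24 h with the largest falls, SRXN1 with bPEI at -2.18 and SLC7A11 with citrate at -3.08, lie below the 5th percentile (-1.38 in both comparisons), whereas FTH1 lies inside the band.

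The coatings were then compared with each other at the same time. In 90 such tests of members, 2 passed, against 0.195% of all gene tests. At 12 h citrate against bPEI changed 1 of 10 members (1.39% of all tested genes), NQO1, given above. At 24 h PEG against bPEI changed 1 of 10 (0.0536% of all tested genes), SRXN1, which was higher with PEG by 2.03 ± 0.40 SE, limma adjusted p = 0.0371 (means 319.6 ± 89.6 (SD, n = 3) and 75.4 ± 3.64 (SD, n = 2)). Every PEG library was above both bPEI libraries for SRXN1, and the call was lost when PEG replicate A or B or either bPEI library was left out. Without the set-aside libraries it was 2.03 (limma adjusted p = 0.00478). Citrate exceeded bPEI at 24 h for SRXN1 by 1.74 ± 0.40 SE, limma adjusted p = 0.0514, just outside the threshold, and the edgeR adjusted p was 0.0504. The set-aside libraries are in no 12 h group and no coated 24 h group, but enter the shared estimate of spread. Without them citrate against bPEI at 24 h was also called for SRXN1 (1.74), NFE2L2 (-0.99) and NQO1 (-0.62). At 12 h SRXN1 (1.17) and GCLC (-0.97) were added for that pair. With limma and all libraries, 0 members were called in the other 7 coating pairs. At 6 h 4 members were at an unadjusted p under 0.05 for citrate against bPEI (0.0751% of all tested genes called), 2 for PEG against bPEI (0% called) and 0 for citrate against PEG (0% called). At 12 h there were 0 for PEG against bPEI (0.0215% called) and 1 for citrate against PEG (0.0215% called). At 24 h there were 5 for citrate against bPEI (0.182% called) and 1 for citrate against PEG (0.0107% called), and edgeR also called 0 members in these 7. The percentages are of calls by adjusted p and are no background for the unadjusted counts. Of 9324 tested genes, 641, 542 and 281 were at that unadjusted p at 6 h, in the order given. The counts were 376 and 726 at 12 h, and 1062 and 465 at 24 h.

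Changes over time within an exposure were called more often. Between times in NoNP, 12 of 30 member tests passed (7 higher at the later time, 5 lower), against 16.2% of all gene tests. Within the coatings 26 of 90 passed (11 higher, 15 lower), against 12.5%. In NoNP 3 of 10 members changed from 6 to 12 h (11.8% of all tested genes), 6 of 10 from 12 to 24 h (18.3%) and 3 of 10 from 6 to 24 h (18.6%). From 6 to 12 h, 6 of 10 changed with bPEI (28.7%), 1 with PEG (9.82%) and 3 with citrate (5.08%). From 12 to 24 h, 1 of 10 changed with bPEI (3.37%), 4 with PEG (14.8%) and 4 with citrate (11.7%). From 6 to 24 h, 2 of 10 changed with bPEI (17.6%), 1 with PEG (9.96%) and 4 with citrate (11.7%). The 24 h values of NoNP and the 6 h values of bPEI include the set-aside libraries.

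HMOX1 fell from 6 to 12 h and from 6 to 24 h in every exposure, and was the only member whose fall over a step was called in all 4. From 6 to 12 h it fell by 2.93 on the log2 scale in NoNP (limma adjusted p = 1.84e-07), from 611 ± 158 (SD, n = 3) to 77.9 ± 1.59 (SD, n = 3). With the coatings the change from 6 to 12 h was -2.20 with bPEI, -3.02 with PEG and -3.25 with citrate. From 6 to 24 h the changes were -3.50 in NoNP, -3.33 with bPEI, -3.70 with PEG and -3.48 with citrate. The NoNP change was -4.11 without the set-aside libraries and -2.88 without NoNP replicate A at 24 h. No library of the earlier time overlapped the later one in any of the 8, and all 8 calls held in all 12 alternative settings and without each of their own libraries. NoNP cultures showed the fall as well. The interaction of exposure and time was not called for HMOX1 (limma adjusted p = 0.707).

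NFE2L2 peaked at 12 h. In NoNP it rose by 0.99 ± 0.33 SE, limma adjusted p = 0.0478 from 6 h and then fell by 1.53 to 24 h (limma adjusted p = 0.00413), and without the set-aside libraries the change was -0.43 (limma adjusted p = 0.422) and no longer called, and without NoNP replicate A at 24 h it was -2.64 (limma adjusted p = 1.24e-07). The rise was lost without any 1 of its 6 libraries. With bPEI it rose by 1.91 ± 0.33 SE, limma adjusted p = 0.000109, from 472 ± 21.3 (SD, n = 3) to 1781 ± 176 (SD, n = 3), and by 1.92 (limma adjusted p = 2.11e-07) without the set-aside libraries. With citrate it changed from 12 to 24 h by -1.47 ± 0.33 SE, limma adjusted p = 0.00373, and with PEG by -0.97 ± 0.33 SE, limma adjusted p = 0.046, the latter lost without 5 of its 6 libraries. GCLC and NQO1 took the same course with bPEI, GCLC rising by 2.45 ± 0.52 SE, limma adjusted p = 0.00111 and NQO1 by 0.92 ± 0.19 SE, limma adjusted p = 0.000564. With the set-aside libraries left out, these rises were 2.06 (limma adjusted p = 3.47e-05) and 0.81 (limma adjusted p = 4.25e-05). NQO1 with bPEI was still higher at 24 than at 6 h (0.61 ± 0.21 SE, limma adjusted p = 0.0433, and 0.50 without those libraries). This call was lost without bPEI replicate B at 6 h alone, without either bPEI library at 24 h, and with only the groups compared. From 6 to 12 h GCLC also rose in the other exposures, by 1.48 in NoNP, 1.40 with PEG and 1.12 with citrate. NQO1 rose by 0.43 in NoNP and 0.45 with PEG over the same step. With all libraries these rises in the other exposures were not called. In citrate, by contrast, NQO1 moved by only 0.10 ± 0.21 SE from 6 to 12 h (interval -0.33 to 0.53) and was not called between any times. In NoNP, GCLC (-1.81 ± 0.58 SE, limma adjusted p = 0.0309) and NQO1 (-0.76 ± 0.21 SE, limma adjusted p = 0.011) fell from 12 to 24 h, and both calls ended without NoNP replicate B at 24 h, at -0.17 (limma adjusted p = 0.895) and -0.15 (limma adjusted p = 0.732). Without replicate A they were -3.45 (limma adjusted p = 3.32e-06) and -1.37 (limma adjusted p = 3.32e-06).

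TXNRD1 and SRXN1 had their lowest means at 12 h in every exposure. In NoNP SRXN1 rose from 65.4 ± 30.6 (SD, n = 3) at 12 h to 353 ± 109 (SD, n = 2) at 24 h, by 2.48 ± 0.40 SE, limma adjusted p = 4.56e-05, and 2.16 (limma adjusted p = 0.0025) without the set-aside libraries. It was also higher at 24 than at 6 h (1.58 ± 0.40 SE, limma adjusted p = 0.00471), a call lost without them, 1.26 (limma adjusted p = 0.0591). With PEG SRXN1 rose by 1.91 ± 0.36 SE, limma adjusted p = 0.00036 from 12 to 24 h. With bPEI it fell by 1.53 from 6 to 12 h (limma adjusted p = 0.00189), and the change was -1.51 (limma adjusted p = 0.00389) without the set-aside libraries. From 12 to 24 h bPEI gave 0.49 ± 0.40 SE, limma adjusted p = 0.619. TXNRD1 fell by 1.76 with citrate from 6 to 12 h (limma adjusted p = 0.00192), from 424 ± 59.3 (SD, n = 2) to 131 ± 47.3 (SD, n = 3), a call lost without citrate replicate C at 6 h. From 12 to 24 h TXNRD1 rose in NoNP (1.07 ± 0.35 SE, limma adjusted p = 0.031), with PEG (0.95 ± 0.32 SE, limma adjusted p = 0.0382) and with citrate (1.09 ± 0.32 SE, limma adjusted p = 0.0209). The PEG call was lost without PEG replicate B or C at 12 h or A at 24 h. It was also lost with no filter and with only the groups compared. The citrate call was lost without citrate replicate B at 12 h or A at 24 h, and the NoNP call without NoNP replicate A or B at 12 h. The NoNP rise was 0.95 (limma adjusted p = 0.121) without the set-aside libraries.

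GCLM fell from 6 h with citrate, with a change of -1.21 ± 0.37 SE, limma adjusted p = 0.0494 to 12 h and of -1.26 ± 0.37 SE, limma adjusted p = 0.0218 to 24 h. With all libraries no GCLM step passed in the other exposures, where NoNP from 6 to 24 h gave -0.95 ± 0.37 SE, limma adjusted p = 0.0689. Without the set-aside libraries GCLM with PEG passed from 6 to 12 h, -0.87 (limma adjusted p = 0.00445), and from 6 to 24 h, -0.98 (limma adjusted p = 0.00141), while NoNP from 6 to 24 h was -0.37 (limma adjusted p = 0.375). Without NoNP replicate A at 24 h that NoNP step was -1.54 (limma adjusted p = 0.0107). The citrate call at 12 h was lost in each of its 5 leave-outs, and that at 24 h in 4 of 5. SLC7A11 fell with citrate to 24 h from 12 h (-3.01 ± 0.67 SE, limma adjusted p = 0.00282) and from 6 h (-2.51 ± 0.75 SE, limma adjusted p = 0.0237), the second lost by edgeR (adjusted p = 0.0944) and without citrate replicate B at 24 h or either citrate library at 6 h. Without citrate replicate B at 24 h, the library with 0 reads, SLC7A11 fell by 1.76 from 12 h, still called, and the difference from 6 h shrank to a size of 1.25.

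The 2 ferritin genes differed in course. FTH1 rose in NoNP from 6 to 12 h (0.60 ± 0.16 SE, limma adjusted p = 0.00988) and from 6 to 24 h (0.82 ± 0.18 SE, limma adjusted p = 0.000919). The rise to 24 h was 0.86 without the set-aside libraries. Its call was lost with only the groups compared and with 1 variance weight per group. With all libraries no FTH1 step passed with any coating. The PEG rise from 6 to 12 h, 0.50, passed without the set-aside libraries. FTL was lowest at 12 h in every exposure and rose to 24 h in all 4, by 0.87 ± 0.18 SE, limma adjusted p = 0.000968 in NoNP, 0.72 ± 0.18 SE, limma adjusted p = 0.0219 with bPEI, 0.74 ± 0.16 SE, limma adjusted p = 0.00172 with PEG and 0.96 ± 0.16 SE, limma adjusted p = 0.000149 with citrate. The NoNP call was lost with only the groups compared and with 1 variance weight per group, and the bPEI call in all 5 of its leave-outs. The NoNP rise was 0.70 without the set-aside libraries. With bPEI FTL had fallen from 6 to 12 h (-0.75 ± 0.16 SE, limma adjusted p = 0.000942, and -0.81 (limma adjusted p = 0.000267) without those libraries). With citrate it ended above its 6 h level (0.83 ± 0.18 SE, limma adjusted p = 0.00184).

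**Figure D4:**
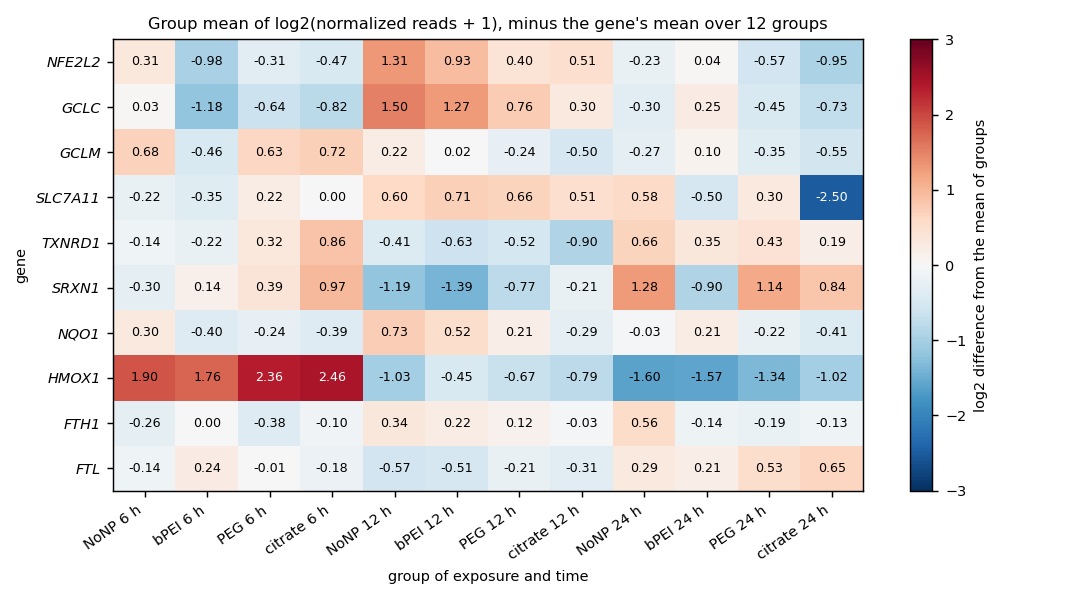
Rows are members and columns the 12 groups; each cell is the group mean of log2(normalized reads + 1) minus the gene's mean over the 12 groups, red above and blue below. HMOX1 is high in the 4 groups at 6 h (1.76 to 2.46) and low in the other 8 (-0.45 to -1.60), NFE2L2, GCLC and NQO1 are highest in NoNP at 12 h, and FTL is lowest there.

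Whether the exposures changed the course over time was tested by the interaction of exposure and time. It was called for 62 of 9324 genes (0.665%) and for 0 of 10 members with limma, with 5 members at an unadjusted p under 0.05 (SRXN1, FTH1, GCLM, NQO1 and SLC7A11) and 0 by edgeR. SRXN1 had the smallest limma adjusted p, 0.133. The share of all genes at that unadjusted p is not given here, so the 5 members cannot be set against it. Over all genes, interaction calls rose without NoNP replicate A at 24 h and without both set-aside libraries. A rise in member calls in those fits is therefore not particular to the members. Leaving out NoNP replicate A at 24 h gave 5 members, NFE2L2, GCLC, GCLM, SRXN1 and NQO1. Leaving out both set-aside libraries gave 1, NFE2L2 (limma adjusted p = 0.0491).

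As a description over 12 group means, which share libraries and scaling with each other, Pearson's r was 0.96 between NFE2L2 and GCLC, 0.90 between GCLC and NQO1 and 0.86 between NFE2L2 and NQO1. It was 0.72 between TXNRD1 and SRXN1 and 0.71 between SRXN1 and FTL. Negative values were -0.86 for NFE2L2 and FTL, -0.82 for GCLC and SRXN1, -0.79 for NFE2L2 and SRXN1 and -0.79 for SRXN1 and NQO1. The other members were less alike: with NFE2L2 and SRXN1 in turn, r was 0.23 and -0.13 for GCLM, 0.60 and -0.30 for SLC7A11, -0.27 and 0.15 for HMOX1, and 0.41 and -0.16 for FTH1. Of all tested genes outside the members, those most like NFE2L2 over the same 12 means were FAM21A (r = 0.97) and EGLN2 (r = 0.97), those most like GCLC were UBE2L3 (0.99) and TFG (0.98), and those most like NQO1 were OAZ1 (0.97) and TXNDC12 (0.96). For GCLM they were GPC3 (0.84) and GPAM (0.83), for SLC7A11 RNF219 (0.91) and NEMP2 (0.91), and for TXNRD1 PPARA (0.89) and MFN2 (0.86). For SRXN1 they were HSF1 (0.95) and RHBDF1 (0.95), for HMOX1 ISM1 (0.97) and GLRX5 (0.96), for FTH1 EIF1AY (0.92) and BCL2L2 (0.92), and for FTL ANO8 (0.98) and NECTIN2 (0.97). The best of 9324 genes is picked here, so a high r is a description only.

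Other genes of the pathway were taken from 5 lists chosen by name. Calls against NoNP over all genes rose without the set-aside libraries. The 2.31% of the fit of all libraries is therefore no background for list counts in that fit. Among NRF2 regulators and partners, 9 of 10 measured genes were tested against NoNP 9 times each. They gave 2 calls, both higher (2.47% of 81 tests, 2.31% over all genes). Both were MAFF, a small MAF protein that pairs with NRF2, with citrate. It rose from 104 ± 31.4 (SD, n = 3) to 491 ± 142 (SD, n = 2) at 6 h, 2.24 ± 0.39 SE, limma adjusted p = 0.0033, and at 12 h the difference was 1.81 ± 0.35 SE, limma adjusted p = 0.00177. The other 8 tested genes of the list gave no call with all libraries, and without the set-aside libraries the list gave 6 calls, all higher.

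Among glutathione and thioredoxin enzymes, 16 of 17 measured genes of a list of 18 were tested, with 3 calls higher and 9 lower (8.33% of 144 tests), and 12 higher and 23 lower without the set-aside libraries. GPX2, a glutathione peroxidase, was lower with citrate at 12 h (-1.70 ± 0.38 SE, limma adjusted p = 0.00728). SLC3A2, the heavy chain that partners SLC7A11, was higher with citrate at 12 h (0.92 ± 0.24 SE, limma adjusted p = 0.017) and lower with bPEI at 24 h (-1.33 ± 0.29 SE, limma adjusted p = 0.00503), the latter -0.76 (limma adjusted p = 0.138) without the set-aside libraries. GPX4, which reduces lipid peroxides, was lower at 24 h with citrate (-1.35 ± 0.27 SE, limma adjusted p = 0.00321), and -1.05 (limma adjusted p = 0.0232) without the set-aside libraries. For GPX4 the bPEI and PEG calls at 24 h ended without them, at -0.87 (limma adjusted p = 0.137) and -0.70 (limma adjusted p = 0.15).

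Detoxification enzymes and exporters gave 6 calls higher and 4 lower among 17 tested genes of a list of 21, 17 of them measured (6.54% of 153 tests). Without the set-aside libraries the balance turned, with 11 higher and 17 lower. AKR1C3 and AKR1C2, aldo-keto reductases, were lower with citrate at 12 h, with differences of -1.35 ± 0.22 SE, limma adjusted p = 0.000438 and of -1.98 ± 0.34 SE, limma adjusted p = 0.000658, at the time at which NQO1 was called with citrate. The AKR1C genes are close copies of each other, so reads may be shared among them. ABCC2, a canalicular exporter of conjugates, was higher with citrate at 12 h (0.90 ± 0.19 SE, limma adjusted p = 0.00298). Of 15 genes of iron and heme handling, 1 call in 135 tests was made (0.741%), PCBP1, an iron chaperone for ferritin, lower with citrate at 12 h (-0.86 ± 0.24 SE, limma adjusted p = 0.0289). Iron and heme genes gave 7 calls, all lower, without the set-aside libraries. Of the 12 tested genes among 14 of ATF4 and its targets, 3 calls were higher and 11 lower (13% of 108 tests), and 4 higher and 13 lower without those libraries. VEGFA was lower at 24 h with bPEI (-1.63 ± 0.33 SE, limma adjusted p = 0.0027), PEG and citrate (-1.85 ± 0.30 SE, limma adjusted p = 0.0003), and -1.57 (limma adjusted p = 0.0111) and -1.79 (limma adjusted p = 0.00107) for bPEI and citrate without the set-aside libraries. CEBPG, a partner of ATF4, was lower with citrate at 24 h (-3.29 ± 0.66 SE, limma adjusted p = 0.00291), and -3.43 (limma adjusted p = 0.00425) without them. Between times in NoNP, without silver, calls were made in 29.6% of the tests of NRF2 regulators, 18.8% of glutathione and thioredoxin enzymes, 33.3% of detoxification enzymes and exporters, 20% of iron and heme genes and 19.4% of ATF4 genes, beside 16.2% over all genes. For NRF2 regulators 1 call was from 6 to 12 h, 4 from 12 to 24 h and 3 from 6 to 24 h. The steps to 24 h rest on 2 NoNP libraries that differed from each other. Without the set-aside libraries NRF2 regulators gave fewer calls between times, and the other lists as many or more.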

How the data were processed

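TempO-Seq libraries of HepG2 lysates were analysed, 32 in 12 groups taken from the labels. The deposited table holds a normalized signal per gene and library, as its values show, and the sources used here do not give the aligner, the genome build or the handling of probes. Multiplying the deposited values by 1 factor for each library gave whole reads (100% of values within 0.01 reads), and these factors equal median-of-ratios size factors. Groups were compared with limma 3.58.1 (R 4.3.3; trend and robust moderation) on log2(value + 1) for the 9324 genes with a mean of at least 5, in 1 fit of 12 group means with 20 residual degrees of freedom. Two-sided p-values were Benjamini-Hochberg adjusted over all tested genes in each of 30 comparisons, at a threshold of 0.05. The script was tested on simulated data. Alternatives were edgeR 4.0.16 (quasi-likelihood) on recovered reads, pseudocount 5, no filter, a mean of at least 20, equal totals, TMM, quantile normalization, voom weights, only the groups compared, a replicate block and leaving out each library. After the data were seen, leaving out both set-aside libraries and 1 variance weight per group were added.

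The members and lists were chosen with earlier results of these data known. All 10 members were named. From each list up to 3 genes with the smallest adjusted p against NoNP and up to 3 in the NoNP time steps could be named, and for likeness the 2 genes with the highest correlation over 12 group means. Depth was 1313855 to 6735072 reads, so a count of 0 allows up to 3 reads, counting error only. Replicate letters were not used as pairs in the main fit. Deviations from group means correlated at a mean r of 0.0099 for the same letter at the same time, over 44 pairs. For other letters the mean r was -0.0052, over 84 pairs, and whether the letters mark a pairing was not tested.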

Additional observations from a re-analysis of the deposited data

How the results depend on the processing

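The 8 member calls against NoNP became 4 with equal library totals, 4 with quantile normalization, and 24 with both set-aside libraries left out. Leaving out each library in turn gave 5 (without bPEI replicate B or citrate replicate B at 24 h) to 20 (without NoNP replicate B at 24 h), with 16 without NoNP replicate A at 24 h. The 2 calls between coatings became 8 with only the groups compared, 7 with both set-aside libraries left out and 5 with 1 variance weight per group, and 0 (without bPEI replicate A at 12 h) to 4 in the leave-one-out fits. The 12 calls in NoNP between times ranged from 9 to 19 (without NoNP replicate A at 24 h). The 26 calls within coatings became 45 with both set-aside libraries left out and ranged from 22 to 39. For the interaction, 0 became 1 with both set-aside libraries left out and ranged from 0 to 5 (without NoNP replicate A at 24 h). The cause was not tested. Without the set-aside libraries, and without NoNP replicate A at 24 h, calls over all genes also rose in every set of comparisons and for the interaction. No member difference called with all libraries changed sign in any setting run. At 24 h, however, uncalled differences from NoNP took opposite signs without NoNP replicate A and without replicate B. This held for NFE2L2, GCLC, GCLM, NQO1 and HMOX1 with each coating, SRXN1 and SLC7A11 with PEG, and FTL with bPEI. Which of these NoNP libraries is typical is not known. Of the 8 calls against NoNP, 1 held in all 12 settings, as did 2 of 2 between coatings, 4 of 12 in NoNP over time and 21 of 26 within coatings. Equal library totals moved the median difference of all genes from NoNP at 24 h by 0.10 with bPEI, 0.13 with PEG and 0.16 with citrate on the log2 scale. Fits with only the groups compared were not run for the interaction. Values of SLC7A11 are limited by depth, at 0 to 135 reads.

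With the replicate letter as a block there were 9 calls against NoNP, 2 between coatings, 13 in NoNP over time, 29 within coatings and 0 for the interaction. Of 32 libraries, 16 correlated best with a library of their own letter at the same time. The mean r of deviations was 0.0099 for the same letter (44 pairs) and -0.0052 for other letters (84 pairs). Whether the letters pair the libraries was not tested, so what the block stands for is not known.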
